A study of Rattus norvegicus with 6 samples.

Results

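Gad1, Gad2, Abat, Aldh5a1 and Slc32a1, the genes that make, load and break down the transmitter GABA (gamma-aminobutyric acid), were followed in RNA of whole rat islets of Langerhans at 2 ages. They are 5 of the 17055 gene rows of the count files and were matched by symbol. The set was picked for the large rise of Gad1 between the ages in these same libraries. Levels of the 5 genes and their differences between the ages are therefore given as a description, without a test. For the P10 group, islets came from Sprague-Dawley rats aged 10 days, whose sex the labels do not give, and for the adult group from Sprague-Dawley males at 3 months. Both groups are labelled as controls, carry no named transgene or agent, and have 3 libraries labelled as biological replicates (numbers 1, 3 and 4 at P10 and 1, 2 and 3 in adults, the order in which values of single libraries are given). Whether a replicate pools several animals is not said, so the spread between replicates may not be one between single animals, and effects of age and sex cannot be told apart. The title of the series names maturation of beta cells, the insulin producers, after birth as its subject.

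GABA is made from glutamate in 1 step by glutamate decarboxylase, which needs pyridoxal phosphate as a cofactor. There are 2 forms of the enzyme, GAD67 from Gad1, mostly soluble, and GAD65 from Gad2, which is anchored to vesicle membranes by palmitoylation and is an autoantigen of type 1 diabetes. GABA transaminase (Abat) turns GABA into succinic semialdehyde, and succinic semialdehyde dehydrogenase (Aldh5a1) oxidises that to succinate, so that the route, the GABA shunt, rejoins the tricarboxylic acid (TCA) cycle past the 2-oxoglutarate dehydrogenase step. In inhibitory neurons the vesicular transporter VGAT (Slc32a1) loads GABA into synaptic vesicles. Beta cells are among the few cells outside the nervous system with much GABA, which acts on receptors of neighbouring islet cells.

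The windows around the annotated starts of both decarboxylase genes are shown because these 2 genes serve the same reaction and their levels differed by unequal amounts between the ages. Each runs from 250 bases before the start to 50 after it, 5′ to 3′ on the gene's own strand, from RefSeq on the GRCr8 build (the counts were made on rn5). Of the 5 genes 4 matched an entry of that table by symbol, and Abat did not. Capitals mark TATAAA, the core of a TATA box, and GGGCGG, a GC box, on either strand.
Gad1, chr3:75777202-75777501, plus strand: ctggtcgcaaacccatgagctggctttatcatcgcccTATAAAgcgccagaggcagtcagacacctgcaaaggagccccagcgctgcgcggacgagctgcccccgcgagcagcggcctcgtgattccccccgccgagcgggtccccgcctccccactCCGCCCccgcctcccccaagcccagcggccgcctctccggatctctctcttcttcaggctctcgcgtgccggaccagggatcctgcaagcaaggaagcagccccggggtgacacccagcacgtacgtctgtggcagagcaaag
Gad2, chr17:89671468-89671767, plus strand: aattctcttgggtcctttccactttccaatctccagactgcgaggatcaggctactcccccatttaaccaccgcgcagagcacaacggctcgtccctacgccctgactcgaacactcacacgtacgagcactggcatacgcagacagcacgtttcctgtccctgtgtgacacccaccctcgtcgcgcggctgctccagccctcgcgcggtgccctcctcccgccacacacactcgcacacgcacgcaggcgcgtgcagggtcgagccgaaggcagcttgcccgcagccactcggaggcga
The Gad1 window held 1 TATAAA, 213 bases before the annotated start, and 1 GGGCGG, read on the opposite strand, 93 bases before it. The Gad2 window held neither. Over all 33469 windows of 300 bases in the table, 14.2% held TATAAA and 33.1% GGGCGG on either strand. An E-box, CANNTG on both strands, was found once in the Gad1 window and not in that of Gad2, against 72.1% of all windows, and neither window held TGACGTCA or TAATTA (1.83% and 5.36% of windows, both strands). The matches overlap none of the others. Both windows were rich in CpG dinucleotides, with 26 in Gad1 and 29 in Gad2 against a median of 7, more than 84.8% and 88.5% of windows. These are letters in a window and not measured sites.

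Reads assigned to genes numbered between 3307415 and 6477825 per library. Islet hormone genes led the libraries at both ages, as the label of the tissue says: the 8 of 9 beta-cell markers with a row summed to between 227908 and 297159 CPM (counts relative to library size, normalised for composition) at P10 and between 538705 and 671884 in adults. Of these 8 markers 6 were higher in adults in edgeR's quasi-likelihood test (false discovery rate, FDR, under 0.05) and none was lower, and their median log2 fold change was 1.06. Over all 10124 genes tested, 26.3% were called, 12.5% as higher and 13.8% as lower in adults, and the median log2 fold change was -0.03. Fibroblast markers summed to 2502 to 3197 CPM at P10 and 243 to 345 in adults, and duct markers to 843 to 907 and 30.4 to 42.4. Adult replicate 3 stood apart by its acinar markers, 4133 CPM against 1042 and 1185 in the other adult libraries and 2802 to 4071 at P10. With library totals alone, without composition factors, the median over all genes moved by -0.49 on the log2 scale, so every difference below is relative to the bulk of the genes.

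Gad1 was the gene that set the pattern. It had 391, 261 and 197 counts in the P10 libraries and 1387, 1214 and 1778 counts in the adult libraries, or 53.0, 38.8 and 47.8 CPM against 479.7, 445 and 326 CPM. Every adult library was far above every P10 library, and the lowest adult value was that of replicate 3. That library had the highest sum of acinar markers (4133 CPM, beside 2802 to 4071 at P10), and the part of acinar cells in its value was not tested. The means were 46.5 ± 7.21 CPM at P10 and 417 ± 80.3 CPM in adults (SD, n = 3), a fitted fold of 8.94 and a log2 fold change of 3.16 ± 0.17 (SE). By log2 fold change it was number 21 from the top among the 10124 genes tested. Without adult replicate 3 the log2 fold change was 3.32. Since these are bulk samples, more cells with the transcript and more transcript per cell cannot be told apart, for this gene and the others.

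Gad2, the gene of the membrane-bound form, differed much less. Its normalised level was 33.6, 24.1 and 32.5 CPM in the P10 libraries and 60.2, 50.9 and 54.2 CPM in the adult libraries. The adult libraries lay above the P10 libraries without overlap, on means of 30.1 ± 5.23 and 55.1 ± 4.68 CPM (SD, n = 3). The fitted fold was 1.83 and the log2 fold change 0.87 ± 0.19 (SE), below the median of 1.06 of the beta-cell markers in the same libraries. With library totals alone its log2 fold change was 0.39.

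Of the breakdown enzymes, Abat, the transaminase, had 25.9, 34.3 and 33.0 CPM in the P10 libraries and 79.9, 68.2 and 79.1 CPM in the adult libraries. These groups did not overlap either, and the spread within each age was small, with means of 31.1 ± 4.53 and 75.7 ± 6.56 CPM (SD, n = 3). The fitted fold was 2.44 and the log2 fold change 1.29 ± 0.18 (SE). Abat thus lay between Gad2 and Gad1 in the size of its difference.

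Aldh5a1, the dehydrogenase that completes the shunt, was the lowest in counts of the 4 genes with reads, with between 45 and 85 counts per library. Its level was 9.22, 12.2 and 12.6 CPM in the P10 libraries and 15.6, 16.9 and 15.6 CPM in the adult libraries. The adult libraries were above the P10 libraries by a narrow margin, on means of 11.3 ± 1.85 and 16.0 ± 0.737 CPM (SD, n = 3). The log2 fold change of 0.50 ± 0.30 (SE), a fitted fold of 1.41, was 0.000426 with library totals alone. In the GRCr8 annotation the span of Aldh5a1 overlaps that of Gpld1, and in libraries without strand the reads of an overlap cannot be assigned to either gene.

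Slc32a1, the vesicular GABA transporter of neurons, is listed at 0 counts in all 6 libraries. For counting error alone, 0 counts in a group of 3 libraries allow up to 3 counts, or 0.165 CPM at P10 and 0.271 CPM in adults. An exact 0 throughout is shared by 3810 gene rows of these files, among them Col1a2, although its partner chain Col1a1 had 343 to 12853 counts per library. For Slc32a1 the files therefore show a listed 0, and whether reads of the gene could be counted was not tested.

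**Figure D1:**
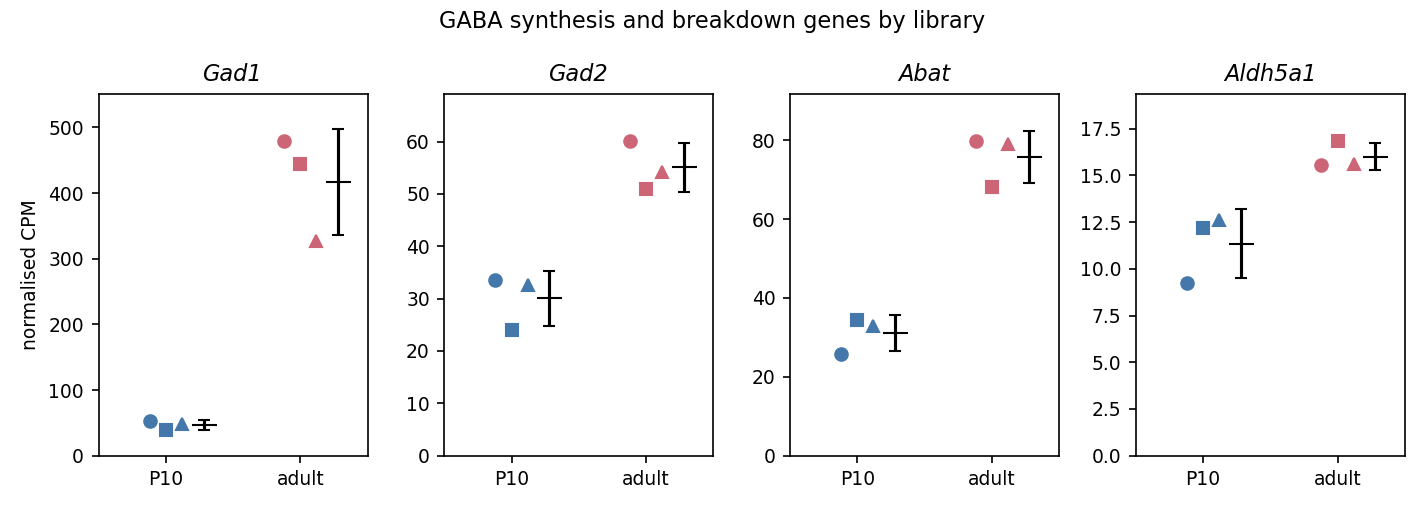
Normalised CPM (vertical axes, linear from 0, a separate scale for each gene) of Gad1, Gad2, Abat and Aldh5a1 in the 3 P10 libraries (blue; circle, square and triangle are replicates 1, 3 and 4) and the 3 adult libraries (red; replicates 1, 2 and 3), with mean and SD in black. Adult points lie above P10 points in all 4 panels, by the widest margin for Gad1 (326 to 479.7 against 38.8 to 53.0 CPM).

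Thus 4 of the 5 genes passed the filter on low counts, and in all 4 the adult libraries lay above the P10 libraries. Adult libraries lay above P10 libraries in 20.0% of all genes tested, but as the set was picked on this contrast the count is a description. The differences were ordered Gad1, Abat, Gad2 and Aldh5a1. Abat and Gad2, at 1.29 ± 0.18 and 0.87 ± 0.19 (SE), are neighbours in that order, as are Gad2 and Aldh5a1, at 0.87 ± 0.19 and 0.50 ± 0.30 (SE). The log2 fold changes of such neighbours lie within a few standard errors of each other. Gad1 came first at 3.16 ± 0.17 (SE), but its large rise was what the set was picked for.

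The balance between the decarboxylase genes can be read within each library, where the scaling between libraries does not enter. Gad1 made up 61.2%, 61.7% and 59.5% of the Gad1 and Gad2 counts together in the P10 libraries, and 88.9%, 89.7% and 85.8% in the adult libraries. The exact (Clopper-Pearson) 95% intervals of the P10 libraries reached up to 66.4% and those of the adult libraries down to 84.2%, for counting error only. The mean share was 60.8% ± 1.14 at P10 and 88.1% ± 2.08 in adults (SD, n = 3). As a ratio, there were 1.55 ± 0.0735 Gad1 counts for each Gad2 count at P10 and 7.58 ± 1.40 in adults (SD, n = 3). Counts are not divided by transcript length, so the share is one of reads and not of mRNA molecules, and only its difference between libraries is comparable. The libraries of each age lay close together and the ages far apart. The share contains Gad1, whose rise the set was picked for, so it is a description and the intervals are no test of age.

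**Figure D2:**
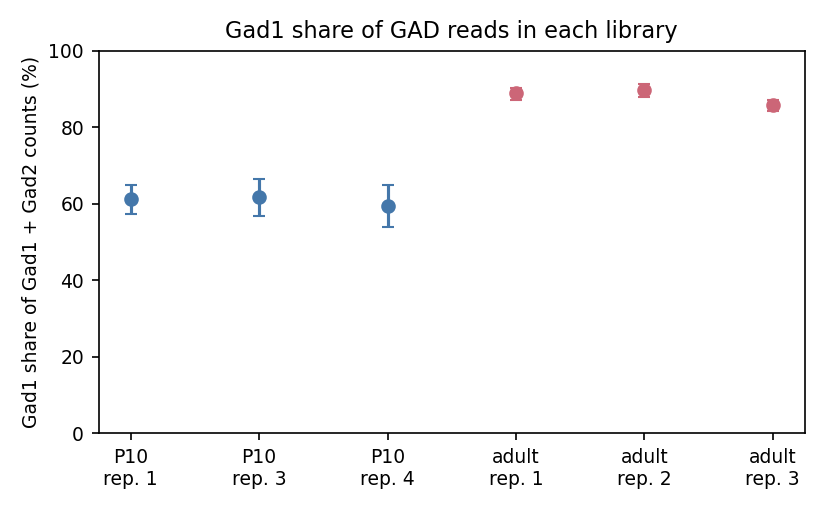
Share of Gad1 in the Gad1 and Gad2 counts (vertical axis, percent) in each of the 6 libraries (horizontal axis), with exact 95% intervals for counting error. P10 libraries (blue) lie between 59.5% and 61.7% and adult libraries (red) between 85.8% and 89.7%.

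Both decarboxylase genes were also set against beta-cell genes of the same libraries, a comparison chosen after the values were seen. Per 100000 counts of Ins1 and Ins2, the insulin genes, there were 17.98, 17.2 and 17.2 Gad1 counts in the P10 libraries and 89.9, 66.7 and 60.1 in the adult libraries. The adult mean was 4.14 times the P10 mean (72.2 ± 15.7 against 17.5 ± 0.446; SD, n = 3). For Gad2 the same ratio was 11.3 ± 0.528 at P10 and 9.63 ± 1.84 in adults (SD, n = 3), with overlapping libraries. Against the summed counts of 5 beta-cell markers that are not hormones (Slc2a2, Ucn3, Pdx1, Nkx6-1 and Slc30a8), Gad1 stood at 5.94 ± 0.740 per 100 counts at P10 and 28.4 ± 6.10 in adults, and Gad2 at 3.83 ± 0.529 and 3.73 ± 0.312 (SD, n = 3). Measured this way Gad2 overlapped between the ages and Gad1 did not. The sum leans on Slc2a2, which had the most counts of the 5 in every library and a fitted fold of 2.34. The fitted folds were 2.04 for Nkx6-1, 2.02 for Ucn3, 1.31 for Slc30a8 and 1.16 for Pdx1, beside 1.83 for Gad2. The overlap of Gad2 is thus one against this sum, and single markers were not tried. Reads without a unique alignment, which include those shared by Ins1 and Ins2, were 23.4% to 27.7% of all counted alignments at P10 and 15.1% to 17.8% in adults, and their part in the insulin ratios was not tested.

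**Figure D3:**
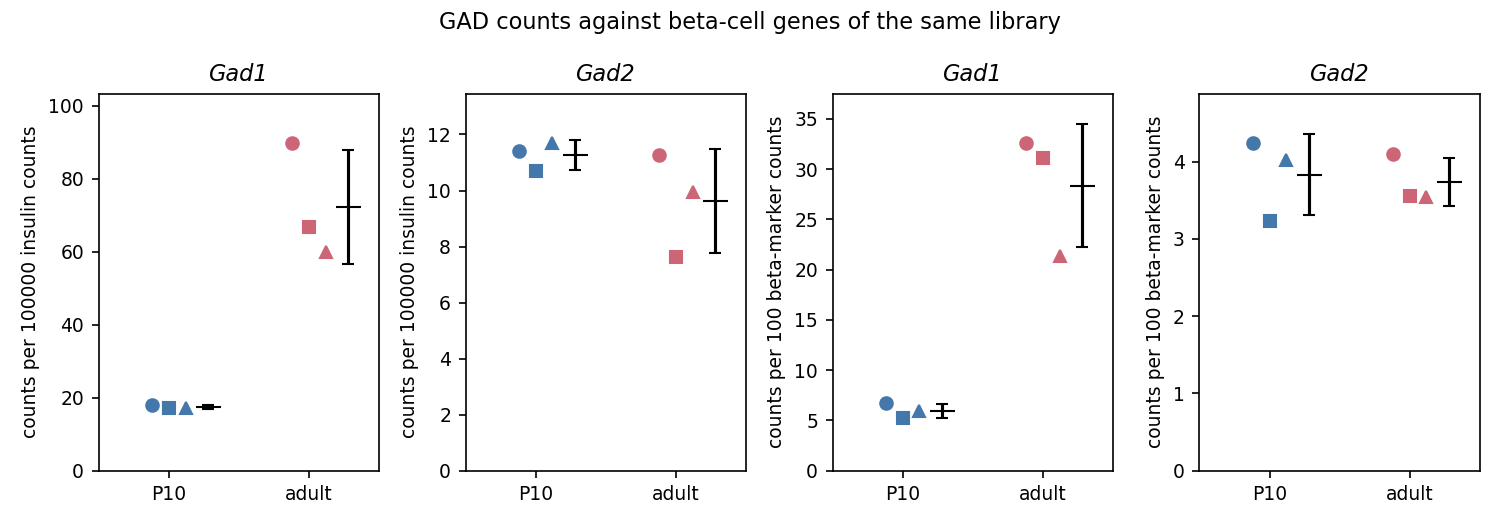
Gad1 and Gad2 counts per 100000 insulin counts (left pair) and per 100 counts of 5 non-hormone beta-cell markers (right pair), by age, with points for libraries (circle, square and triangle are replicates 1, 3 and 4 at P10 and 1, 2 and 3 in adults) and mean and SD in black. Gad1 differs between the ages on both scales (17.5 against 72.2 and 5.94 against 28.4), and Gad2 overlaps on both.

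The counts of the other genes can be set against each other in the same way. For each Abat count there were 2.54 ± 0.762 counts of Gad1 and Gad2 together at P10 and 6.28 ± 1.30 in adults (SD, n = 3). For each Abat count there were 0.364 ± 0.0155 Aldh5a1 counts at P10 and 0.213 ± 0.0296 in adults (SD, n = 3). In adult islets, reads of Gad1 and Gad2 pooled were thus more numerous per read of the transaminase, and reads of the dehydrogenase fewer. The pooled rise was not one of Gad2. Its counts were 248, 162 and 134 beside 191, 231 and 136 of Abat in the P10 libraries. In the adult libraries they were 174, 139 and 295 beside 231, 186 and 431.

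Markers of the other endocrine cells, of neurons and of glia were read in the same libraries, against 12.5% of all genes called higher and 13.8% called lower. The 6 alpha-cell markers summed to between 25009 and 27964 CPM at P10 and between 13766 and 18522 in adults, with Slc38a5 called higher and Gcg, glucagon, lower of 6 tested. The 5 delta-cell and PP-cell markers summed to between 4131 and 4371 CPM at P10 and between 5132 and 7726 in adults, with Ppy, pancreatic polypeptide, called higher and Pyy, peptide YY, lower of 5 tested. Neither sum overlapped between the ages. The 14 of 15 neuron markers with a row summed to 66.5, 90.8 and 61.4 CPM in the P10 libraries and to 98.9, 83.6 and 44.8 CPM in the adult libraries, overlapping between the ages. Of the 6 that passed the filter on low counts, Nefh, a neurofilament chain, was the only one called, as higher in adults (log2 fold change 0.97 ± 0.32 (SE), edgeR FDR = 0.0361). Dlx1, Dlx2, Dlx5 and Lhx6, transcription factors of GABA neurons, had at most 12 counts in a library. The 8 Schwann cell and glial markers summed to 59.0 to 98.1 CPM at P10 and 19.5 to 33.7 in adults, with 3 of 4 tested lower (S100b, Ngfr and Erbb3) and none higher. No marker with a row in these 4 lists was at 0 in every library, and the part of these cells in the differences was not tested.

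Over the 6 libraries, the genes whose log2 CPM ran most like that of Gad1 were Gramd3, Prkar1b, Suox, LOC679038 and Ptprn, with Pearson's r from 0.997 to 0.998 among 8779 tested genes averaging at least 5 CPM. Ptprn encodes a membrane protein of insulin granules, Prkar1b a regulatory subunit of protein kinase A, and Suox sulphite oxidase. Ptprn went from 499 ± 16.8 to 1846 ± 133 CPM (SD, n = 3), a log2 fold change of 1.89. For Gad2 the most similar included Pde4d, Pdx1, Cdk16 and Vdac1, with r from 0.989 to 0.998. Pde4d, a cyclic AMP phosphodiesterase, was at 10.1 ± 1.78 and 18.2 ± 0.907 CPM, and Pdx1, a beta-cell transcription factor, at 129 ± 5.12 and 150.4 ± 5.42 CPM (SD, n = 3). Such a likeness is of shape and not of size, over 6 libraries in 2 age groups, and 9.35% of the candidates had r above 0.9 with Gad1. Among the 4 genes themselves r was between 0.718 (Gad2 and Aldh5a1) and 0.957 (Gad1 and Gad2).

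The other genes of the pathway were tested in the fit over all genes, against 12.5% called higher and 13.8% called lower there. Of the GABA receptor genes, 23 of 24 had a row, 6 of these were listed at 0 in every library (Gabra3, Gabra5, Gabra6, Gabrb2, Gabrg1 and Gabrr3), and 6 passed the filter. None was called higher and 1 was lower, Gabrp, and with library totals alone none was higher and 3 were lower. Their median log2 fold change was 0.03 against -0.03 for all genes.

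The receptor subunits of GABA-B, the G protein-coupled receptor, drew the most reads of the receptor genes. Gabbr1 had 45.2, 52.2 and 46.4 CPM in the P10 libraries and 43.6, 35.6 and 38.7 CPM in the adult libraries. Gabbr2 had means of 41.5 ± 10.1 and 35.1 ± 4.97 CPM (SD, n = 3). Neither passed (log2 fold changes -0.29 ± 0.18 and -0.25 ± 0.21 (SE), edgeR FDR = 0.255 and 0.440), except with library totals alone, where both were lower (FDR = 0.00526 and 0.0144, with others up to 0.593 and 0.916).

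Gabrp, the pi subunit of the GABA-A chloride channel, known from epithelia, had 102, 29 and 30 counts in the P10 libraries and 0, 0 and 6 in the adult libraries. It fell by 4.04 ± 0.87 (SE) on the log2 scale (edgeR FDR = 0.00274), and by normalised counts the P10 level was 16.3 times the adult level, with a 95% counting interval of 7.33 to 45.1. All adult counts lay in replicate 3. Leaving it out, with 3 counts taken as the limit for the remaining adult libraries together, the P10 level was 16.6 times that limit. This takes the P10 counts as exact, although 102 of the 161 lay in P10 replicate 1. Without P10 replicate 1 the log2 fold change was -3.45. Duct markers, also epithelial, were lower in the adult libraries (843 to 907 against 30.4 to 42.4 CPM), as were fibroblast markers (2502 to 3197 against 243 to 345 CPM). Within P10 the duct sum was lowest in replicate 1, where Gabrp was highest. The part of these cells in the fall was not tested.

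Gabrb1, a beta subunit named here after its values were seen, had 0, 11 and 14 counts at P10 and 17, 18 and 41 in adults. Its log2 fold change of 2.08 ± 0.85 (SE) did not pass (edgeR FDR = 0.0862), though it did without a filter, under the stricter filter and in DESeq2 (0.0458, 0.0471 and 0.0450), and the other alternatives gave up to 0.202.

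Among GABA transporters and the volume-regulated anion channel, a pore of LRRC8 proteins that can pass GABA, 7 of 10 genes were tested, 2 were higher and 1 lower, against 1 and 2 with library totals alone. Lrrc8d, a channel subunit, had 72.0, 50.5 and 46.9 CPM in the P10 libraries and 137, 108 and 131 CPM in the adult libraries. It rose 2.21-fold without overlap (edgeR FDR = 0.000175), and this call held in all 13 alternatives. Slc6a6, the taurine transporter, rose 1.59-fold (FDR = 0.0103), which no longer passed when P10 replicate 3, adult replicate 1 or adult replicate 2 was left out (FDR from 0.0506 to 0.0584) and with library totals alone (0.461). Lrrc8c fell 2.78-fold (FDR = 0.0225), and did not pass on leaving out P10 replicate 1 or 4, or adult replicate 2 or 3 (FDR from 0.0549 to 0.109). Lrrc8a, the obligatory subunit, and Lrrc8b did not pass, with log2 fold changes of -0.33 ± 0.22 and -0.28 ± 0.34 (SE; edgeR FDR = 0.294 and 0.590). Of the plasma membrane carriers of GABA, Slc6a11 and Slc6a13 were listed at 0 in every library.

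Genes that anchor and move GABA-A receptors were higher in 4 of 10 cases and lower in none, against none and 1 with library totals alone, with a median log2 fold change of 0.28. Gabarapl1, a relative of the GABA-A receptor-associated protein that also serves autophagy, rose 1.72-fold, from 80.9 ± 5.44 to 139 ± 15.3 CPM (SD, n = 3; edgeR FDR = 0.000638). Trak1, an adaptor of kinesin transport, rose 1.47-fold (FDR = 0.00656). Hap1, huntingtin-associated protein, rose 1.40-fold (FDR = 0.0298), and did not pass on leaving out P10 replicate 1 or 3, or adult replicate 1 or 2 (FDR from 0.0663 to 0.125). Gphn, gephyrin, the scaffold of inhibitory synapses, rose 1.73-fold (FDR = 0.0473), but passed in only 2 of 13 alternatives and in none of the 6 fits that left out 1 library (FDR from 0.0594 to 0.183). Gabarap itself had 360.1 ± 53.0 and 355 ± 32.8 CPM (SD, n = 3), and neither it nor Gabarapl2 passed (edgeR FDR = 0.933 for Gabarap; for Gabarapl2 log2 fold change 0.12 ± 0.13 (SE), edgeR FDR = 0.577).

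In the supply of glutamate, the substrate of both decarboxylases, 2 of 14 genes tested were higher and none lower, against none and 4 with library totals alone. Glul, glutamine synthetase, rose 1.60-fold, from 339 ± 26.2 to 543 ± 54.3 CPM (SD, n = 3; edgeR FDR = 0.000676). Slc1a2, the glutamate transporter GLT-1, rose 3.72-fold from low counts, 14, 5 and 8 in the P10 libraries against 13, 17 and 34 (FDR = 0.0435). It did not pass on leaving out P10 replicate 3 or 4, or any adult replicate (FDR from 0.0918 to 0.166). Glud1, glutamate dehydrogenase, and Got2, the mitochondrial aspartate aminotransferase, failed the threshold: Glud1 had 162 ± 13.5 and 163 ± 2.81 CPM, and Got2 187 ± 6.72 and 179.9 ± 0.682 CPM (SD, n = 3), with edgeR FDRs of 0.954 and 0.767.

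A list of other routes to GABA, related decarboxylases, cofactor enzymes and the palmitoyltransferases of GAD65 had 16 genes tested, with 3 higher and none lower, against 1 and 6 with library totals alone. Odc1, ornithine decarboxylase, which makes the putrescine from which GABA can also be formed, rose 1.99-fold, from 52.6, 52.7 and 55.6 CPM to 117, 82.5 and 119 CPM (edgeR FDR = 0.000354), and held in all 13 alternatives. Maoa, monoamine oxidase A, rose 1.85-fold (FDR = 0.00849), and was lost without adult replicate 3 (FDR = 0.0521, with other alternatives between 0.00209 and 0.186). Ddc, the aromatic amino acid decarboxylase, a relative of the GAD enzymes, rose 1.68-fold (FDR = 0.0129), and did not pass on leaving out P10 replicate 3 or 4, or adult replicate 1 (FDR from 0.0546 to 0.0631). Pdxk, pyridoxal kinase, an enzyme of cofactor supply, missed the threshold at an edgeR FDR of 0.0846, its log2 fold change being 0.51 ± 0.21 (SE). Zdhhc13 and Zdhhc17, the palmitoyltransferases, did not pass either (FDR = 0.960 and 0.829). These last 3 are named after their values were seen.

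Of the TCA cycle steps that the GABA shunt bypasses or rejoins, 2 of 10 genes were higher and none lower, against none and 4 with library totals alone. Ogdh, a subunit of 2-oxoglutarate dehydrogenase, the bypassed enzyme, rose 1.40-fold, from 149 ± 4.24 to 209 ± 14.6 CPM (SD, n = 3; edgeR FDR = 0.00783). Dlst and Dld, further subunits of the same complex and named after their values were seen, did not pass. Their log2 fold changes were -0.05 ± 0.15 and 0.01 ± 0.19 (SE; edgeR FDR = 0.847 and 0.967). Sdha, a subunit of succinate dehydrogenase, which uses the succinate that the shunt delivers, rose 1.43-fold (FDR = 0.0466), and did not pass on leaving out any library but P10 replicate 4 (FDR from 0.0608 to 0.170). Its partner Sdhb, with 115 ± 4.46 CPM at P10 and 103 ± 5.97 CPM in adults (SD, n = 3), did not pass (edgeR FDR = 0.411), nor did Suclg1, a subunit of succinyl-CoA ligase (FDR = 0.783).

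**Figure D4:**
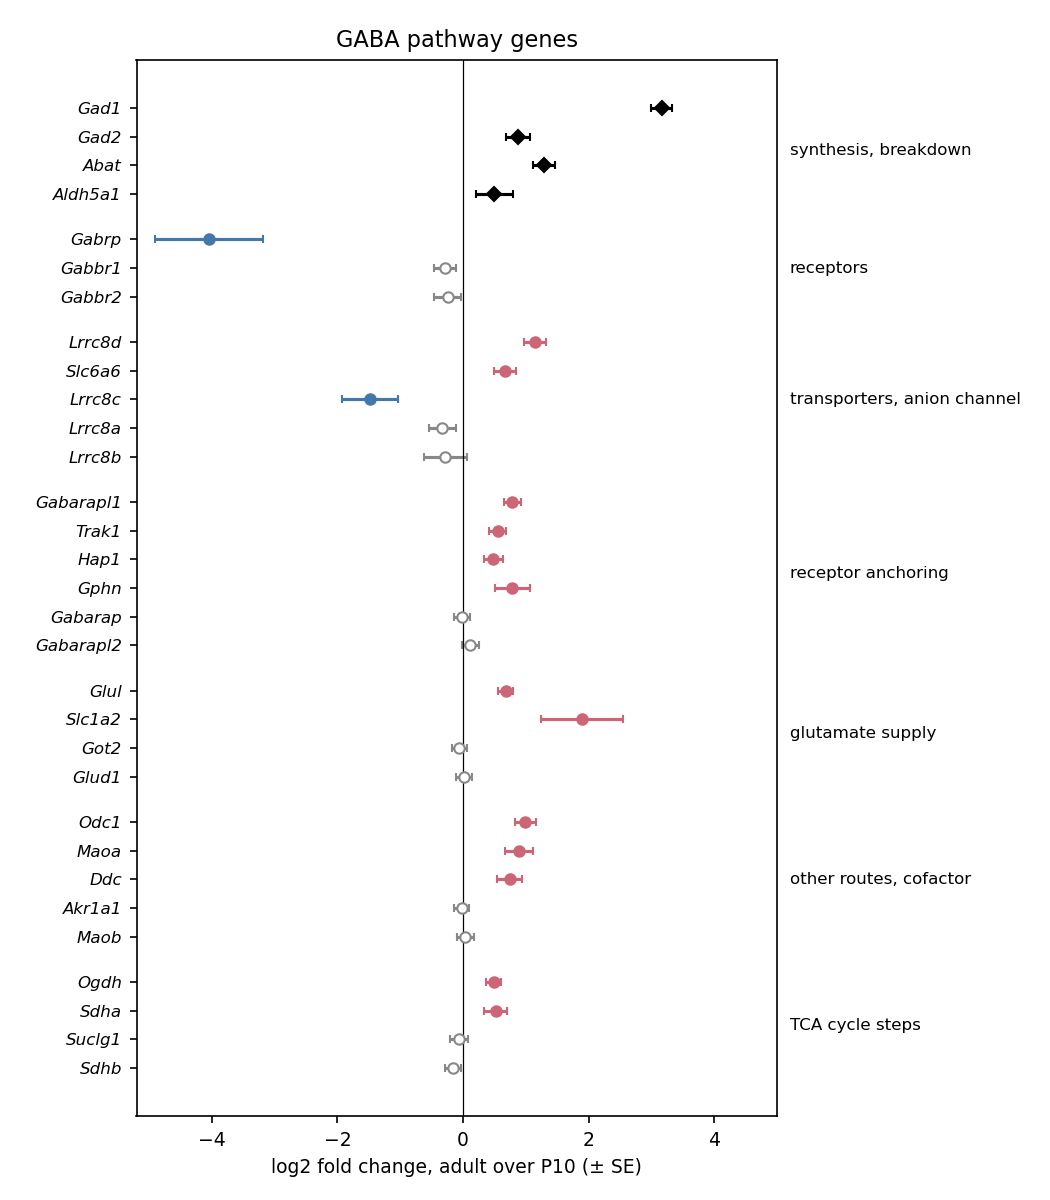
Log2 fold change of adult over P10 (horizontal axis, bars are ± SE) for the 4 genes with reads (black diamonds, no test) and for the named genes of the other lists (red, higher, and blue, lower, at an edgeR FDR under 0.05; open grey, not passed). Gad1 stands at 3.16, and the other genes plotted lie between -4.04 (Gabrp) and 1.89 (Slc1a2).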

How the data were processed

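Polyadenylated RNA of 6 islet libraries was sequenced as single-end reads without strand, per the labels' protocols. The reads were aligned to the rn5 build and counted with Bowtie2, TopHat2 (2.0.10) and HTSeq, going by the tools listed per the submitters' processing notes, which also name DESeq and edgeR. The deposited values are raw read counts per gene symbol. The 5 counter rows were left out (ambiguous reads 0.319% to 0.474%). A deposited table of all libraries was not used. edgeR 4.0.16 in R 4.3.3 kept genes by filterByExpr (minimum count 10, total 15), scaled by TMM factors and fitted a quasi-likelihood model with age as the only term to all 6 libraries. The FDR (threshold 0.05) is Benjamini-Hochberg over all genes tested. The SE is the log2 fold change over the root of F. Log2 CPM for likeness used a prior count of 2. Precision follows the depth: 3 counts were 0.407 to 1.0995 CPM in a library. The script was tested on simulated data with 9968 genes tested. There it called 54.5% of 99 genes changed 2-fold, 89.9% of 99 changed 4-fold and 0.0409% of the unchanged ones. Changed genes were a far smaller part of the simulation than the 26.3% called in the real data. These shares therefore need not hold for the real fit. A gene that did not pass may still differ. Alternatives were other scalings, filters of none or 5 CPM in 3 libraries, DESeq2 1.42.0, a block and leaving out each library.

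The members and lists were chosen with earlier results of these data known. Named genes are the 5 members, from each list up to 4 called genes of smallest p in each direction and the 2 most abundant that did not pass, and the 5 most like Gad1 and Gad2. In the lists, Aoc1 was matched through a RefSeq synonym (GRCr8 table). Some genes that this rule or the lists take are not reported here.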

Additional observations from a re-analysis of the deposited data

How the results depend on the processing

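The log2 fold changes of Gad1, Gad2, Abat and Aldh5a1 stayed above 0 in all 13 alternatives. Apart from library totals alone they ran from 3.05 to 3.32, 0.74 to 1.00, 1.18 to 1.41 and 0.38 to 0.59; with library totals alone they were 2.67, 0.39, 0.79 and 0.000426. Without single libraries the difference in the Gad1 share of GAD counts ran from 26.5 to 28.5 percentage points.

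With library totals alone 343 genes were higher and 3612 lower (8.67% of calls higher, against 47.6%). Higher and lower counts were then 0 and 3 for receptors, 1 and 2 for transporters and the anion channel, 0 and 1 for anchoring, 0 and 4 for glutamate supply, 1 and 6 for other routes and 0 and 4 for TCA cycle steps. Signs turned for Hap1 (-0.0109), Gabarapl2 (-0.38), Glud1 (-0.48), Maob (-0.46) and Ogdh (-0.0100).

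With the replicate number as a block, 679 genes were higher and 729 lower, with 0 receptors lower, 0 transporters or channel genes lower, and 1 gene higher in each of anchoring, glutamate supply, other routes and TCA cycle steps; Glud1 was at -0.00174 and Suclg1 at 0.0400. Only the numbers 1 and 3 occur in both groups, which leaves 1 residual degree of freedom. Deviations from the group means of same-numbered libraries correlated at -0.02 and -0.0049 in the log2 CPM of all genes tested. Those of differently numbered libraries correlated at -0.0508 to 0.0387. So few pairs cannot show whether same-numbered samples share more than a number.

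Without a filter, with 5 CPM in 3 libraries and in DESeq2, 1 receptor gene was higher, and under both filters 1 glutamate gene. Without single libraries, counts of higher genes ran from 1 to 3 for transporters and the channel, 2 to 3 for anchoring, 1 to 2 for glutamate supply and 1 to 2 for TCA cycle steps, and lower ones from 0 to 1 for transporters and 0 to 1 for glutamate supply. Values near 0 changed sign without some libraries, over ranges of -0.0911 to 0.118 for Gabarap, -0.0159 to 0.0958 for Glud1, -0.0832 to 0.0521 for Akr1a1 and -0.162 to 0.0260 for Suclg1, and Glud1 was at -0.00853 with the 5 CPM filter. The cause was not tested. Slc1a2 had 5 to 34 counts in a library and Gabrb1 0 to 41, and the part of depth in their calls was not tested.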
